A study of Homo sapiens with 12 samples.

Results

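The 2 siCHD4 libraries were compared directly with the 2 siGATAD2A libraries, chosen by their treatment labels from the 12 RNA-seq libraries of the series. No siCTL library entered this contrast of group means, and siCTL served to place each gene on either side of the control level. All 12 libraries shared 1 model, so siCTL and the other knockdowns also entered the scaling, the estimate of spread and the expression filter. The study asked how CARM1 and subunits of the NuRD complex affect gene expression, and transfected HEK293T cells (HEK293 in the study's methods), a human embryonic kidney line, with a control siRNA (siCTL) or with siCARM1, siCHD4, siHDAC2, siGATAD2A or siKDM1A. Each of the 6 groups holds 2 libraries. The cells grew in DMEM with serum, and no drug or other treatment was given. The methods list 1 siRNA sequence against CHD4 and 1 against GATAD2A, so effects of a target and of its siRNA sequence cannot be told apart. Time after transfection and separate cultures are not given, so p-values here measure the spread between these libraries only, which may be technical.

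NuRD joins ATP-dependent nucleosome remodelling with histone deacetylation. CHD4 is its remodelling ATPase, and GATAD2A or its paralog GATAD2B links CHD4 to the deacetylase module of HDAC1/2, MTA and RBBP proteins through MBD2 or MBD3. CHD4 also acts apart from NuRD, for instance in the ChAHP complex with ADNP and HP1 proteins, whereas GATAD2A is known mainly as a NuRD subunit. The direct contrast therefore shows where depletion of the ATPase and depletion of its bridge left different transcript levels.

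The sequences that define the measured targets are shown first. The study checked the targeted genes and CDCA5, a cohesin regulator called in opposite directions in the 2 knockdowns, by RT-qPCR with the primers below (5′ to 3′). On the canonical transcripts of GENCODE release 44 mapped to GRCh37, the CHD4 primers lie in exons 3 and 4 of 40, the GATAD2A primers in exons 9 and 10 of 12, and both CDCA5 primers in exon 6 of 6. All 20 bases of each CHD4 primer lie in exons that a second annotated gene, ENSG00000285238, shares with CHD4 on the same strand.
CHD4 forward: agaaacctcgggaccctaaa
CHD4 reverse: atagtcgctgccctcactgt
GATAD2A forward: gcaggaacaggagattgagc
GATAD2A reverse: gtagcacagccccgttactc
CDCA5 forward: atgaatgccgagtttgaagc
CDCA5 reverse: aaggcagacagtcctcatgc

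Promoters from RefSeq (GRCh38.p14, 250 bases before to 50 after the start) are printed for 4 genes: CDCA5, GATAD2A and IL11, which were called in opposite directions from siCTL, and MAGEC1, which together with IL11 was among the largest folds of genes with a mean of at least 10 counts in the lower group. They were searched on both strands for an AP-1 site (TGACTCA), an E2F site (TTTGGCGC or TTTCCCGC), an ETS site (CCGGAAGT) and a cyclic AMP response element (TGACGTCA). Capitals mark the match. CDCA5 (chr11:65083991-65084290, minus strand) holds 38 CpG and an E2F match whose first base lies 45 bases before the start, GATAD2A (chr19:19385593-19385892, plus strand) 32 CpG and an ETS match at 66 bases, IL11 (chr19:55370414-55370713, minus strand) 19 CpG and an AP-1 match at 96 bases, and MAGEC1 (chrX:141903644-141903943, plus strand) 14 CpG and none of these letters.
CDCA5: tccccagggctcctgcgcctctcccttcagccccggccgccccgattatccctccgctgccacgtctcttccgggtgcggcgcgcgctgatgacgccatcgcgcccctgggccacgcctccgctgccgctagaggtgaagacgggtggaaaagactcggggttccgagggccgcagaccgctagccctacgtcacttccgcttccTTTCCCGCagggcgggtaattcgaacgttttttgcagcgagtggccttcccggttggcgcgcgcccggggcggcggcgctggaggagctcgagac
GATAD2A: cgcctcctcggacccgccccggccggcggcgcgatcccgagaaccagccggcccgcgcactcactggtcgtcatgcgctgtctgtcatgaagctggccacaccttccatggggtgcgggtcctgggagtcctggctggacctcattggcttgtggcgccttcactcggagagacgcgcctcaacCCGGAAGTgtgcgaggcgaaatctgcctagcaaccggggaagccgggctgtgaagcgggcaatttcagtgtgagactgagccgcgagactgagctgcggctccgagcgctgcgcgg
IL11: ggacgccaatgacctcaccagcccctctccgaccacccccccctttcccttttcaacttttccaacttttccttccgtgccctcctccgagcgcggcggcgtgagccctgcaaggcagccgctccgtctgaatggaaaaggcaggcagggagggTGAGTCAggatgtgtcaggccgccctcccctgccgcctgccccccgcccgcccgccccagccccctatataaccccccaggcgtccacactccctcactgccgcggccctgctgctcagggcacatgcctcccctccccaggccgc
MAGEC1: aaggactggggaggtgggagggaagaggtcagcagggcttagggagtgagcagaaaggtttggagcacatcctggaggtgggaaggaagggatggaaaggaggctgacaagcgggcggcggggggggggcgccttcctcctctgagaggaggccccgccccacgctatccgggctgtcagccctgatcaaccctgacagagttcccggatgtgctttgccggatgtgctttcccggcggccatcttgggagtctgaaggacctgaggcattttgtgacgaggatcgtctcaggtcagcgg

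The 4 libraries held 37340927 to 40645427 fragments, of which 23939785 to 26055760 were counted on genes. Fragments on no feature were 18.5% and 18.7% in siCHD4 against 20.7% and 20.9% in siGATAD2A, mitochondrial transcripts were 0.561% and 0.573% against 0.662% and 0.668%, and scaling (TMM) factors were 0.968 and 0.971 against 1.004 in both, so these measures moved with the groups and their part in the results was not tested. The company that sequenced a library is not given for each, so it and the group cannot be told apart. Of 9 markers of the HEK293 line, 6 were above 1 FPKM (counts scaled to exon length and library size) in siCTL, and their sum was 598 to 601 FPKM in siCHD4 and 374 to 379 FPKM in siGATAD2A, with PAX2 and NEFM near 0. Markers of other cell types summed to at most 11.8 FPKM. In siCHD4 against siGATAD2A they summed to 2.85 to 2.87 against 1.47 to 1.53 FPKM for 4 blood genes (PTPRC at or near 0), 0.668 to 0.823 against 0.0316 to 0.113 FPKM for 3 epithelial genes, 1.31 to 1.51 against 1.2 to 1.26 FPKM for 2 endothelial genes, 0.297 to 0.444 against 0.0700 to 0.203 FPKM for 2 liver genes and 8.57 to 8.73 against 8.36 to 8.66 FPKM for 3 fibroblast genes. The part of these differences in the results was not tested. In bulk RNA, fewer cells of a type and less RNA per cell cannot be told apart.

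The targeted genes were examined first, in CPM (counts scaled to library size). CHD4 (ENSG00000111642.16, GRCh37 chromosome 12, 6679248 to 6723690) was at 26.7 and 27.9 CPM in siCHD4, 37.6 and 36.9 CPM in siGATAD2A, and 39.5 and 39.7 CPM in siCTL. The siCHD4 libraries were the lowest of the 12 and did not overlap with siGATAD2A. The difference was a modest log2 fold change of -0.45 (standard error 0.071, edgeR adjusted p = 2.39e-06), and 46.9% of the exonic bases of CHD4 are shared with another gene on the same strand, where fragments are not counted on either. GATAD2A (ENSG00000167491.17, chromosome 19, 19496635 to 19619741) was at 371 and 368 CPM in siCHD4, 52.7 and 51.0 CPM in siGATAD2A, and 182 and 166 CPM in siCTL. GATAD2A mRNA was thus the highest of all 12 libraries in siCHD4 and the lowest in siGATAD2A, 7.12-fold apart (log2 fold change 2.83, standard error 0.058, edgeR adjusted p = 1.13e-26). It was 2.13-fold higher in siCHD4 and 3.35-fold lower in siGATAD2A than in siCTL, and lay between 159 and 208 CPM in the libraries of the other 3 knockdowns. Hence the contrast set cells with less CHD4 mRNA and more GATAD2A mRNA against cells with near-control CHD4 mRNA and less GATAD2A mRNA.

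**Figure D1:**
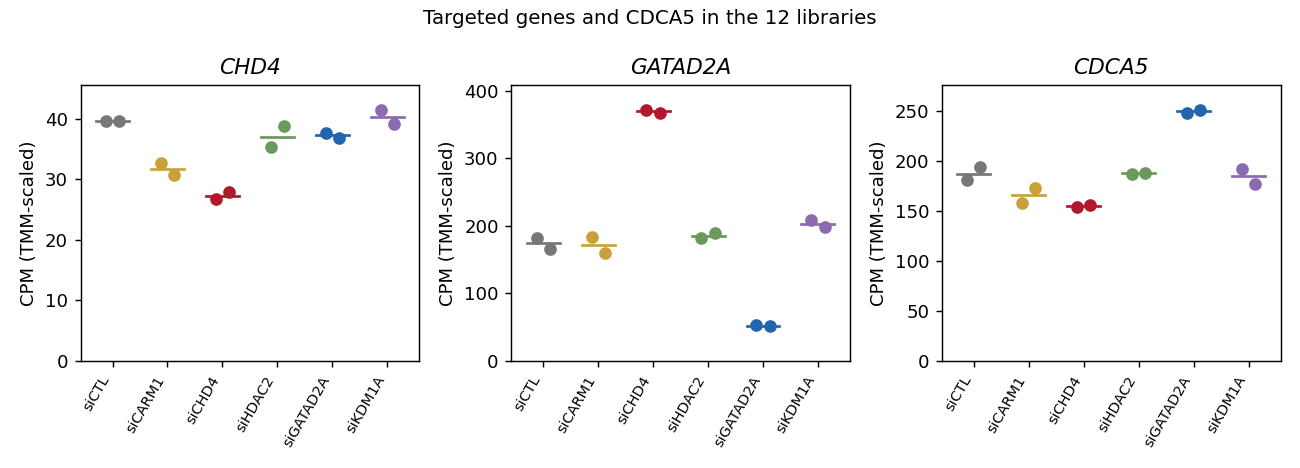
CPM of CHD4, GATAD2A and CDCA5 in each of the 12 libraries (points, 2 per group) with the group mean (line), each axis starting at 0. CHD4 was lowest in siCHD4, and GATAD2A was at 368 and 371 CPM in siCHD4 against 51.0 and 52.7 CPM in siGATAD2A.

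NuRD genes were called in both directions. Of the 8 members of the remodelling module (CHD3, CHD4, CHD5, GATAD2A, GATAD2B, CDK2AP1, MBD2 and MBD3), 4 were higher in siCHD4 and 1, CHD4 itself, was higher in siGATAD2A, a count that takes in both siRNA targets. A gene was called at an edgeR adjusted p of 0.05 or less over all tested genes and a fold of at least 1.2, which 44.8% of all tested genes reached. CHD5, the CHD4 paralog best known from neurons, was at 6.71 and 6.18 CPM in siCHD4, 1.22 and 1.5 CPM in siGATAD2A, and 1.31 and 1.75 CPM in siCTL. It was high in siCHD4 alone of these groups, with no overlap and a log2 fold change of 2.24 (standard error 0.23). A gene of low level that reached the expression filter only through siCHD4 had to differ. The values of CHD5 and its place in the count above are therefore a description. CDK2AP1, a small NuRD subunit, was at 99.5 and 96.6 CPM in siCHD4, 56.3 and 49.0 CPM in siGATAD2A, and 73.7 and 73.5 CPM in siCTL, so that siCTL lay between the knockdowns (log2 fold change 0.90, standard error 0.058). CHD3, the other ubiquitous paralog, differed by 0.43 (log2, standard error 0.045), and GATAD2B, the paralog that can replace GATAD2A, by -0.25 (standard error 0.048), which was below the fold required.

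In the deacetylase module, 2 of 7 genes were higher in siCHD4 and 2 in siGATAD2A, beside 22.9% and 21.9% of all tested genes. The histone-binding WD40 proteins went apart: RBBP7 was higher in siCHD4 by a log2 fold change of 0.55 (215 and 208 CPM against 146 and 143 CPM), and RBBP4 was lower by -0.32 (275 and 274 CPM against 343 and 345 CPM), without overlap in either gene. The MTA scaffold proteins also divided, with MTA2 at 0.35, MTA3 at -0.28 and MTA1 at -0.23 log2, the last not called. The deacetylases HDAC1 (-0.19) and HDAC2 (0.11) were not called. Of 17 partners of NuRD, 4 were called in each direction, 47.1% called against 44.8% over all tested genes, a share of like size. BCL11B, a zinc-finger factor of T cells and neurons, was at 2.47 and 1.70 CPM in siCHD4 and 7.28 and 8.63 CPM in siGATAD2A, a log2 fold change of -1.93, and its paralog BCL11A differed by -0.62. SALL1 (0.43), KDM1A (0.40), PWWP2B (0.34) and SALL3 (0.30) were higher in siCHD4, while ZNF687 (-0.38) and SALL2 (-0.36) were higher in siGATAD2A. None of the 6 ChAHP genes (ADNP, ADNP2, POGZ, CBX1, CBX3 and CBX5) was called in the direct edgeR contrast, nor by DESeq2, their log2 fold changes lying between -0.21 and 0.22, under the fold required, although all 6 had an unadjusted p under 0.05. SALL1 was not called without the second siCHD4 library (0.31).

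**Figure D2:**
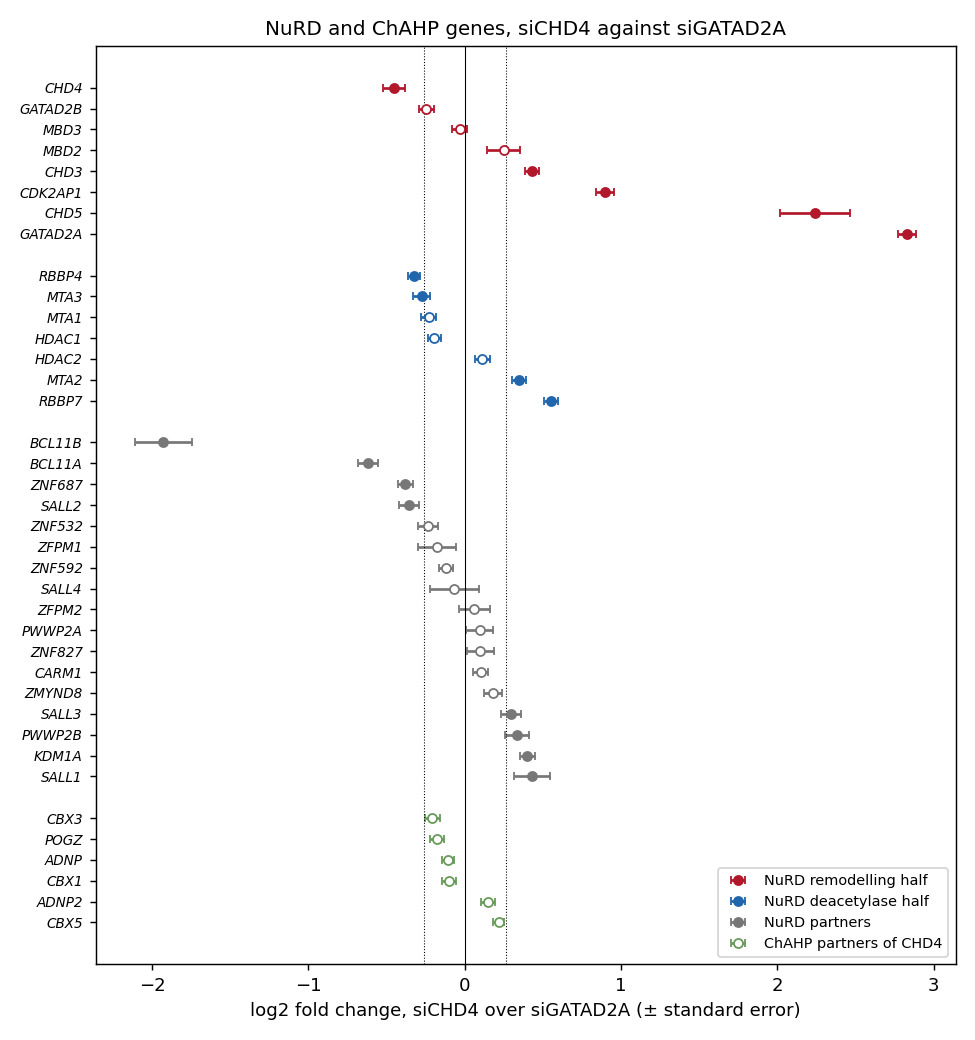
Log2 fold change of siCHD4 over siGATAD2A (point) with its standard error (bar) for 38 NuRD and ChAHP genes. Filled points were called, and dotted lines mark a fold of 1.2. GATAD2A (2.83) and CHD5 (2.24) lay farthest to the right and BCL11B (-1.93) farthest to the left, and no ChAHP gene was called.

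Across the 12830 coding genes tested, 2940 (22.9%) were higher in siCHD4 and 2805 (21.9%) were higher in siGATAD2A by edgeR. The median log2 fold change of all genes, which the scaling sets near 0, was -0.00086 with an SD of 0.64, and with a GC correction the counts were 2558 and 3093. The large differences were unequal, since 607 called genes were more than 2-fold higher in siCHD4 and 308 more than 2-fold higher in siGATAD2A. The biological coefficient of variation was 3.47%, and in 82.3% of all tested genes both libraries of 1 group lay above both of the other, so that lack of overlap alone says little here. With 2 libraries in each group the smallest two-sided p of an exact permutation test is 0.333, so the p-values given are those of edgeR's model.

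Among genes with a mean of at least 10 counts in the lower group, MAGEC1, MAGEC2, IL11 and CGA had the largest differences in favour of siCHD4. MAGEC1, a cancer-testis antigen of the X chromosome, was at 23.8 and 21.7 CPM in siCHD4, 0.569 and 0.398 CPM in siGATAD2A, and 0.273 and 0.276 CPM in siCTL. It was 46.2-fold higher in siCHD4 (log2 fold change 5.53, standard error 0.23), and its neighbour MAGEC2 42.0-fold higher (5.39). Both genes were thus high in siCHD4 and near the control level in siGATAD2A. IL11, a cytokine of the IL6 family, was at 41.4 and 39.4 CPM in siCHD4, 0.813 and 1.28 CPM in siGATAD2A, and 1.70 and 2.16 CPM in siCTL, 38.7-fold apart (5.27, standard error 0.16). CGA, the common alpha subunit of glycoprotein hormones, was at 76.5 and 80.0 CPM in siCHD4 and 3.29 and 2.92 CPM in siGATAD2A, with siCTL lower still at 0.656 and 0.598 CPM. Unlike MAGEC1, CGA rose in both knockdowns from siCTL, though 25.1-fold more in siCHD4.

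TENM1, a teneurin of neuronal wiring, was at 91.3 and 91.2 CPM in siCHD4, 4.19 and 5.44 CPM in siGATAD2A, and 4.59 and 4.97 CPM in siCTL. Its siGATAD2A and siCTL libraries overlapped, and the whole difference (4.25 log2) lay in siCHD4. HR, a nuclear corepressor of the hair follicle, had a log2 fold change of 4.29 and ARHGAP30, a GTPase-activating protein, one of 3.74. The germline genes SPANXN3 (3.66) and MAGEB6 (3.64) and CYP24A1 (3.53), which degrades vitamin D, complete the 10 largest differences under this limit. These 10 genes were chosen by their folds, and a gene that reached the expression filter only through siCHD4 had to differ. Their values are therefore a description. MAGE and SPANX genes have near-identical copies, and since fragments with several locations are not counted, their levels are uncertain.

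SPN (6.02) and APLN (5.40), with means of 3.5 and 8 counts in siGATAD2A, lay above IL11 but below the limit of 10 counts. A further 25 called genes had a mean of 3 counts or fewer in siGATAD2A, while 2 had so few in siCHD4. The genes of this paragraph were named after their values were seen. A gene that reached the expression filter only through siCHD4, such as KRT5 (0.668 and 0.588 FPKM there), had to differ. The counts, ratios and interval given here are therefore a description. CELA2B, a pancreatic elastase, had 63 and 55 counts in siCHD4 and 0 in all siGATAD2A and siCTL libraries, at least 40.2-fold higher when siGATAD2A is set to 3 counts over the group. KRT5, a basal keratin, had 68 and 62 counts against 0 and 1, a ratio of 133 (95% exact interval 23.5 to 5290, counting error only). OTOA (175 and 128 against 1 and 3 counts), IGLON5 (102 and 114 against 1 and 1) and the cancer-testis gene CT55 (88 and 96 against 3 and 0) had the same form. The chemokine CXCL10 had 3 and 3 counts in siCHD4 against 16 and 14 in siGATAD2A.

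Differences in favour of siGATAD2A were smaller, and most of the largest came from genes that fell in siCHD4. ABCG1, a cholesterol exporter, was at 0.972 and 0.554 CPM in siCHD4, 6.18 and 6.33 CPM in siGATAD2A, and 1.86 and 1.56 CPM in siCTL. It was 8.18-fold higher in siGATAD2A (log2 fold change -3.03, standard error 0.24) and siCTL lay between the knockdowns. SCN9A, a voltage-gated sodium channel, was at 1.81 and 2.17 CPM in siCHD4, 13.3 and 12.3 CPM in siGATAD2A, and 11.5 and 11.3 CPM in siCTL, so it was low in siCHD4 alone (-2.68). MYO15B, an unconventional myosin, was at 3.62 and 3.88 CPM in siCHD4 and at 19.7 and 20.6 CPM in siGATAD2A, next to 19.3 and 19.6 CPM in siCTL (-2.42). The same form was found in TMC4 (-2.71), the deubiquitinase OTUB2 (-2.52), SOCS2, a feedback inhibitor of cytokine signalling (-2.21), and STRA6, the retinol transporter (-2.19), none of which was called from siCTL in siGATAD2A. ADCYAP1, the neuropeptide PACAP, went the other way, at 0.574 and 0.426 CPM in siCHD4, 3.01 and 2.83 CPM in siGATAD2A, and 0.820 and 0.506 CPM in siCTL. It rose in siGATAD2A and was not called from siCTL in siCHD4.

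The genes that parted the knockdowns differed in how they stood to siCTL. Of the 229 genes higher in siCHD4 and lower in siGATAD2A than siCTL, and the 143 genes with the reverse calls, every one was also called in the direct contrast, which follows largely from the call rule because these contrasts share libraries. They were 1.78% and 1.11% of tested genes. Of 1741 genes higher in siCHD4 and not called in siGATAD2A, 74.3% were parted directly, and of 1793 lower in siCHD4 and not called in siGATAD2A, 76.7%. Among the 1106 genes higher in both knockdowns, 336 were higher still in siCHD4 and 74 in siGATAD2A, and among the 1255 genes lower in both, 380 were lower in siCHD4 and 125 in siGATAD2A. Of 4945 genes called in neither comparison with siCTL, 356 were higher in siCHD4 and 362 in siGATAD2A when the knockdowns were set against each other. The calls against siCTL alone would have left these 718 differences unseen.

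The genes called in opposite directions were described without a test, because all 3 comparisons share libraries. The 229 genes had a median log2 fold change from siCTL of 0.57 in siCHD4 and -0.53 in siGATAD2A, and the 143 genes of -0.51 and 0.43. A change of at least 2-fold in both knockdowns was reached by 20 of the 229 genes and by 3 of the 143. At the edge of the fold threshold (0.263 log2), CHST11 was just inside at -0.26 in siGATAD2A and SLC35E4 just outside at 0.26 in siCHD4, and for the reverse direction DENND11 (0.27, siGATAD2A) lay just inside and MOB3A (0.26) just outside. Because these genes were chosen with siCTL between the knockdowns, any group near control falls between them too. Mean levels did so in siCARM1, siHDAC2 and siKDM1A for 87.8%, 91.3% and 86.5% of the 229 genes and for 74.1%, 83.2% and 81.8% of the 143 genes, against 49.8% to 54.6% of all genes called in the direct contrast.

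Of the genes higher in siCHD4 and lower in siGATAD2A, the 8 whose smaller change from siCTL was largest, with a mean of at least 10 counts in each of the 3 groups, are described here. Below that limit were APLN, which encodes the peptide apelin, SPN, a leukocyte sialoglycoprotein, and BCHE, butyrylcholinesterase, with changes in siGATAD2A of -2.40, -1.91 and -1.47 log2 from siCTL and means of 8, 3.5 and 8 counts there. KRT17, a keratin of stressed epithelium, was at 161 and 157 CPM in siCHD4, 49.5 and 48.1 CPM in siCTL, and 22.2 and 19.5 CPM in siGATAD2A. THBS2, a matricellular thrombospondin, was at 29.0 and 26.9 CPM in siCHD4, 6.45 and 6.72 CPM in siCTL, and 3.01 and 2.61 CPM in siGATAD2A. In both genes the 3 groups were fully separate, and the knockdowns were 7.63-fold and 9.89-fold apart. CRABP2, which binds retinoic acid, was at 80.3 and 83.1 CPM, 34.2 and 36.7 CPM, and 14.0 and 15.1 CPM in the same order. The aggrecan protease ADAMTS4 (log2 fold change between the knockdowns 2.65), the secreted proteins OLFML1 (3.47) and SRPX (2.49), LINGO1, an inhibitor of axon growth (2.97), and SRL, a calcium-binding protein of muscle (2.61), had the same order of groups.

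The 8 genes of the reverse direction were chosen by the same rule. TEKTIP1, with a mean of 8.5 counts in siCHD4, fell below the limit, at -1.71 in siCHD4 and 1.84 in siGATAD2A (log2 from siCTL). FGF9, a secreted growth factor, was at 1.06 and 1.06 CPM in siCHD4, 2.84 and 3.04 CPM in siCTL, and 6.30 and 5.31 CPM in siGATAD2A. The ligand WNT16 was at 0.442 and 0.554 CPM in siCHD4, 0.984 and 1.47 CPM in siCTL, and 2.6 and 2.7 CPM in siGATAD2A. Neither gene overlapped between the groups, and the knockdowns were 5.45-fold and 5.27-fold apart. ABCG1 and BCL11B, described above, belong to this set, as do ZBTB12 (-1.87), the membrane progestin receptor PAQR6 (-2.15), the mitochondrial carrier SLC25A34 (-1.94) and ZNF536, a neural repressor (-1.62, all log2 between the knockdowns). Levels of most of these were low in siCHD4, with ZNF536 the most abundant at 11.3 and 13 CPM against 37.5 and 37.3 CPM in siGATAD2A.

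Cell cycle genes that the study followed by RT-qPCR were more often lower in siCHD4 than in siGATAD2A. Of the 18, 8 were higher in siGATAD2A and 1 in siCHD4, with a median log2 fold change of -0.13. Over all tested genes these shares were 21.9% and 22.9%, which also stand beside every list count below. From siCTL, 6 of the 18 were called lower and 1 higher in siCHD4, and 4 lower and 6 higher in siGATAD2A. CDCA5 (sororin, ENSG00000146670.10, chromosome 11, 64833772 to 64851636), which protects cohesin on replicated chromatids, was at 154 and 156 CPM in siCHD4, 180 and 194 CPM in siCTL, and 248 and 251 CPM in siGATAD2A. It lay just past the threshold in siCHD4 (1.21-fold lower than siCTL) and was 1.33-fold higher in siGATAD2A, so the knockdowns were 1.61-fold apart (log2 fold change -0.69, standard error 0.048). NEDD1, which brings gamma-tubulin to the centrosome, had the same order, at 31.3 and 32.3 CPM, 41.8 and 40.5 CPM, and 51.5 and 54.4 CPM, and a log2 fold change of -0.74. E2F1, a transcription factor of S-phase entry, was at 133 and 141 CPM in siCHD4, next to 134 and 143 CPM in siCTL, and at 201 and 198 CPM in siGATAD2A. E2F1 (-0.54) and CDK6 (-0.50) rose in siGATAD2A alone, whereas E2F2 (-0.48) and the checkpoint kinase CHEK1 (-0.46) fell in siCHD4 alone of these 2 knockdowns. PPP3CA (-0.40) and E2F8 (-0.31) were also higher in siGATAD2A and MCM8 (0.30) was higher in siCHD4. The mitotic genes AURKA (-0.07), CDC20 (0.07), CDC25C (-0.12) and CENPA (-0.13), with ATR, CDC25A, CDC25B, CDK4 and CDKN2C, were not called.

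S-phase and mitotic genes differed in their counts. In the S-phase list of the Seurat package, 19 of 43 genes were higher in siGATAD2A and 2 in siCHD4, with a median of -0.22 against -0.00086 over all genes. RRM2, a subunit of ribonucleotide reductase, was at 248 and 254 CPM in siCHD4, 364 and 377 CPM in siGATAD2A, and 435 and 426 CPM in siCTL. It was lowest in siCHD4 without overlap (-0.56), as were CHAF1B, a histone chaperone of replication (-0.63), and the helicase BLM (-0.55). Cyclin E2 (CCNE2), 1 of the 2 higher in siCHD4, was at 0.63, being called lower from siCTL in siGATAD2A alone. Of 46 replisome and licensing genes, 20 were higher in siGATAD2A and 1 in siCHD4 (median -0.23). LIG1, which joins Okazaki fragments, was at 105 and 105 CPM in siCHD4 against 171 and 174 CPM in siGATAD2A, and RPA1 (-0.73), the clamp loader RFC4 (-0.74) and the polymerase subunit POLD2 (-0.74) were similarly lower in siCHD4. In the G2/M list only 4 of 53 genes were higher in siGATAD2A and 6 in siCHD4 (median 0.07), where the mitotic kinesin KIF2C (-0.73), PIMREG (-0.60) and the kinase NEK2 (-0.54) were lower and JPT1 (0.55) higher in siCHD4.

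Of 17 cohesin genes, 2 were higher in siCHD4 and 4 in siGATAD2A, 35.3% against 44.8% called over all genes. Beside CDCA5, the deacetylase of SMC3, HDAC8, was at 10.4 and 10.9 CPM in siCHD4 and 18.4 and 19.4 CPM in siGATAD2A (-0.83), the core subunit SMC1A differed by -0.37, and WAPL, which releases cohesin and is opposed by CDCA5, by 0.42. Of 22 cyclins, CDKs and their inhibitors, 6 were higher in siCHD4 and 2 in siGATAD2A. CDKN1C (p57) was at 23 and 22.3 CPM in siCHD4 against 12.2 and 11.6 CPM in siGATAD2A (0.93), the pocket protein RBL2 differed by 0.53, and CDKN2B (p15) by -0.57. Of 47 p53 targets, 12 were higher in siCHD4 and 10 in siGATAD2A, shares of like size to those of all genes, with a median of 0.03. GDF15, a stress cytokine, was at 9.54 and 8.56 CPM in siCHD4 against 1.55 and 2.08 CPM in siGATAD2A (2.32). TNFRSF10A (1.06) and PLK3 (1.03) were also higher in siCHD4, and SPATA18 (-0.96) was higher in siGATAD2A.

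Immediate early genes, the first transcripts after growth factor or stress signals, were higher in siCHD4 for 16 of 30 members and higher in siGATAD2A for 2 (median 0.49). DUSP5, an ERK phosphatase, was at 82.4 and 82.8 CPM in siCHD4, 22.3 and 22.9 CPM in siGATAD2A, and 12 and 10.9 CPM in siCTL. NR4A1, an orphan nuclear receptor, was at 185 and 177 CPM, 52.9 and 51.4 CPM, and 38 and 39.4 CPM in the same order. Both genes rose in each knockdown, and siCHD4 was far above siGATAD2A (1.87 and 1.79 log2). The AP-1 subunit FOSL1 (1.96) and MAFF (1.70) had the same order. In the p38 pathway, 6 of 21 genes were higher in siCHD4 and 4 in siGATAD2A. The kinase MAPK11 (1.19) and the phosphatase DUSP1 (0.87) were higher in siCHD4, while MEF2C (-1.2) and MAP2K6 (-1.07) were higher in siGATAD2A, although MAP2K6 fell from 42.8 and 43.8 CPM in siCTL to 3.27 and 3.15 CPM in siCHD4 and 6.42 and 7.08 CPM in siGATAD2A.

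Genes of 3 developmental signalling pathways, among them ligands, receptors, targets and feedback genes, were counted next. In the Notch list, 10 of 19 genes were higher in siCHD4 and 3 in siGATAD2A (median 0.55). The ligand JAG2 was at 126 and 130 CPM in siCHD4, 54.0 and 55.5 CPM in siGATAD2A, and 62.5 and 65.9 CPM in siCTL (1.22), and the feedback gene NRARP at 631 and 607 CPM against 266 and 263 CPM (1.22). The ligand DLL4 differed by 1.17. The target HES4 also differed by 1.12, but its siCHD4 libraries were near siCTL and it fell in siGATAD2A. Of 23 WNT ligands and feedback genes, a list that does not hold WNT16 (-2.40, higher in siGATAD2A), 12 were higher in siCHD4 and 5 in siGATAD2A (median 0.44). The antagonist DKK1 was at 18.8 and 18.0 CPM in siCHD4 and 4.35 and 4.12 CPM in siGATAD2A (2.11), WNT7B differed by 1.63 and WNT9A by 1.42, and the transcription factor LEF1 by -0.94. In the TGF-beta and BMP list, 9 of 21 genes were higher in siCHD4 and 5 in siGATAD2A (median 0.20). TGFB1 was at 173 and 176 CPM against 62.1 and 61.3 CPM (1.5), BMP2 differed by 1.44, and LTBP2, a latent TGF-beta binding protein, by -0.88.

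Genes of both epithelial and mesenchymal cells were higher in siCHD4, 16 of 24 against 2 higher in siGATAD2A (median 0.55). Vimentin (VIM), the mesenchymal intermediate filament, was at 707 and 688 CPM in siCHD4, 257 and 254 CPM in siGATAD2A, and 398 and 398 CPM in siCTL (1.45). The keratins KRT8 (0.67) and KRT18 (0.53) of simple epithelium were higher in siCHD4 as well, as were MMP2 (1.5), SNAI2 (1.39) and SNAI1 (0.98). SNAI2 had a mean of 8.5 counts in siGATAD2A and lost its call without the second siCHD4 library (1.2 log2). Of 54 collagens, laminins and integrins, 25 were higher in siCHD4 and 8 in siGATAD2A (median 0.23). COL6A3, a microfibrillar collagen chain, was at 16.7 and 14.4 CPM in siCHD4, 1.87 and 1.99 CPM in siGATAD2A, and 0.164 and 0.184 CPM in siCTL (3.004), and COL12A1 at 136 and 136 CPM against 45.2 and 44.8 CPM (1.60). COL13A1 (1.73) and the integrin subunit ITGB3 (1.67) were also higher in siCHD4.

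Of 28 interferon-induced genes, 12 were higher in siCHD4 and 6 in siGATAD2A (median 0.25). From siCTL most went down in both knockdowns, 14 lower and 2 higher in siCHD4 (median -0.31) and 18 lower and 2 higher in siGATAD2A (median -0.54). Opposite calls from siCTL numbered 0. The ubiquitin-like modifier ISG15 was at 10.4 and 10.4 CPM in siCHD4, 5.65 and 4.91 CPM in siGATAD2A, and 12.4 and 13.1 CPM in siCTL, so it was lower than siCTL in both knockdowns and lowest in siGATAD2A (0.97). GBP2 differed by 1.45, and CMPK2 by -0.98. In antigen presentation by MHC class I, 10 of 17 genes were higher in siCHD4 and 0 in siGATAD2A by edgeR or DESeq2 (median 0.35), where 1 had an unadjusted p under 0.05. ERAP2, which trims peptides, was at 71.2 and 73.8 CPM in siCHD4 and 24.6 and 26.9 CPM in siGATAD2A (1.49). NLRC5, the transactivator of class I genes, was at 51.2 and 52.0 CPM in siCHD4, 31.2 and 30.9 CPM in siCTL, and 21.8 and 21.5 CPM in siGATAD2A (1.25), and TAP2 (0.85) and PSMB9 (1.52) were also higher in siCHD4.

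Germline and cancer-testis genes had the highest median of all lists, 1.46, with 10 of 16 tested members higher in siCHD4 and 3 in siGATAD2A. Only 16 of 54 listed genes reached the filter, and a gene that did so through siCHD4 had to differ, so the count is a description. Beside MAGEC1 and MAGEC2, NLRP4 was at 4.59 and 4.30 CPM in siCHD4 and 0.732 and 0.310 CPM in siGATAD2A (3.06). PAGE1 had 10 and 14 counts in siCHD4 and 0 in siGATAD2A and siCTL, at least 8.19-fold higher on the same floor. Neuronal genes went both ways, 4 of 16 higher in siCHD4 and 7 in siGATAD2A. The adhesion molecule L1CAM was at 51.2 and 52.3 CPM in siCHD4, 18.5 and 20.7 CPM in siCTL, and 8.86 and 9.12 CPM in siGATAD2A, and the microtubule protein MAP2 was in the reverse order at 3.18 and 2.68 CPM, 4.59 and 4.83 CPM, and 9.27 and 8.81 CPM. L1CAM and MAP2 thus parted the knockdowns by 2.53 and -1.63 log2 with siCTL between, whereas INA (1.93) and KCNC1 (1.74) were highest in siCHD4.

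In 3 gene families that lie in clusters, more members were higher in siGATAD2A than in siCHD4. Of 32 clustered protocadherins, cell-surface adhesion molecules of neurons, 21 were higher in siGATAD2A and 2 in siCHD4 (median -0.66, the lowest of all lists). PCDHAC1 was at 4.20 and 4.09 CPM in siCHD4, 5.36 and 7.68 CPM in siCTL, and 11.1 and 11.8 CPM in siGATAD2A (-1.46). PCDHB14 (-1.37) fell in siCHD4, whereas PCDHGB3 (-1.19) and PCDHGA6 (-1.17) rose in siGATAD2A. These genes share 3′ exons or near-identical sequence, so their single values are uncertain. Of 32 HOX genes, which set position along the body axis, 15 were higher in siGATAD2A and 6 in siCHD4 (median -0.33). HOXA13 was at 6.71 and 7.11 CPM in siCHD4, 15.3 and 14.1 CPM in siCTL, and 18.8 and 21.0 CPM in siGATAD2A (-1.52), and HOXA5 (-1.35), HOXA6 (-1.10) and HOXC8 (-1.07) had the same order. Of 212 zinc-finger genes of chromosome 19, mostly repressors of the KRAB family, 94 were higher in siGATAD2A and 10 in siCHD4 (median -0.26), with ZNF491 at -1.40, ZNF699 at -1.32 and ZNF114 the largest of the exceptions at 1.71.

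Of 31 genes of cholesterol and fatty acid synthesis, 18 were higher in siGATAD2A and 4 in siCHD4 (median -0.42). SCD, the stearoyl-CoA desaturase, was at 354 and 352 CPM in siCHD4, 485 and 486 CPM in siCTL, and 670 and 668 CPM in siGATAD2A, with all groups separate (-0.92). STARD4, a sterol carrier (-1.28), and the mevalonate enzymes IDI1 (-0.90) and PMVK (-0.85) were lower in siCHD4 by similar amounts. Of 40 glycolysis and hypoxia genes, 17 were higher in siCHD4 and 8 in siGATAD2A, among them the lactate transporter SLC16A3 (1.11), the carbonic anhydrase CA12 (1.22), ANKRD37 (1.47) and FBP1 (1.51). Of 32 genes of the integrated stress and unfolded protein responses, 15 were higher in siCHD4 and 6 in siGATAD2A. EDEM1, which targets misfolded proteins for degradation, was at 138 and 131 CPM against 61.5 and 67.8 CPM (1.06) and CEBPB differed by 0.77. The cystine transporter SLC7A11, however, was at 17.4 and 18.5 CPM in siCHD4 and 40.7 and 44.6 CPM in siGATAD2A (-1.25), and CHAC1, which degrades glutathione, also differed by -1.01. Of 5 metallothionein and zinc genes tested, 3 were higher in siCHD4, MT2A by 0.77, SLC30A1 by 0.29 and MT1X by 1.18, the last with few counts and not called without the second siCHD4 (1.1) or the first siGATAD2A library (0.82).

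Genes of the translation and respiratory machinery and of chromatin are given last, and whether their shares differed from that of all genes was not tested. In cytosolic ribosomal proteins, 13 of 85 were higher in siCHD4 and 4 in siGATAD2A, with RPL7L1, a ribosome assembly factor that the name pattern takes in, at 1.13 and RPL22 at -0.50. In mitochondrial ribosomal proteins, 5 of 76 were higher in siCHD4 and 16 in siGATAD2A (median -0.07), with MRPL47 (-0.89) and MRPL49 (-0.80) farthest apart. Nuclear respiratory chain genes counted 5 and 20 of 80 (median -0.09), where ATP5MC2, a c subunit of ATP synthase, was at 46.0 and 48.0 CPM in siCHD4 and 84.7 and 83.8 CPM in siGATAD2A (-0.84), and mitochondrial respiratory genes 0 and 3 of 13 by edgeR and by DESeq2 (0 and 8 at an unadjusted p under 0.05), MT-CYB (-0.42), MT-ND4L (-0.37) and MT-ATP6 (-0.32). Of 53 replication-dependent histone genes, 10 were higher in siCHD4 and 5 in siGATAD2A. H2BC3 was at 6.85 and 8.48 CPM in siCHD4 and 0.325 and 0.487 CPM in siGATAD2A (4.23), and H2BC1, the testis H2B, at 3.80 and 5.58 CPM against 0.244 and 0.177 CPM (4.44). Both folds rest on low counts in siGATAD2A, so their size is uncertain. Of 25 SWI/SNF subunits, 2 were higher in siCHD4 and 5 in siGATAD2A, with differences no larger than SMARCE1 at -0.44, and of 33 Polycomb subunits, 6 and 9, with CBX7 (-0.99) and PCGF3 (-0.75) lower in siCHD4.

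**Figure D3:**
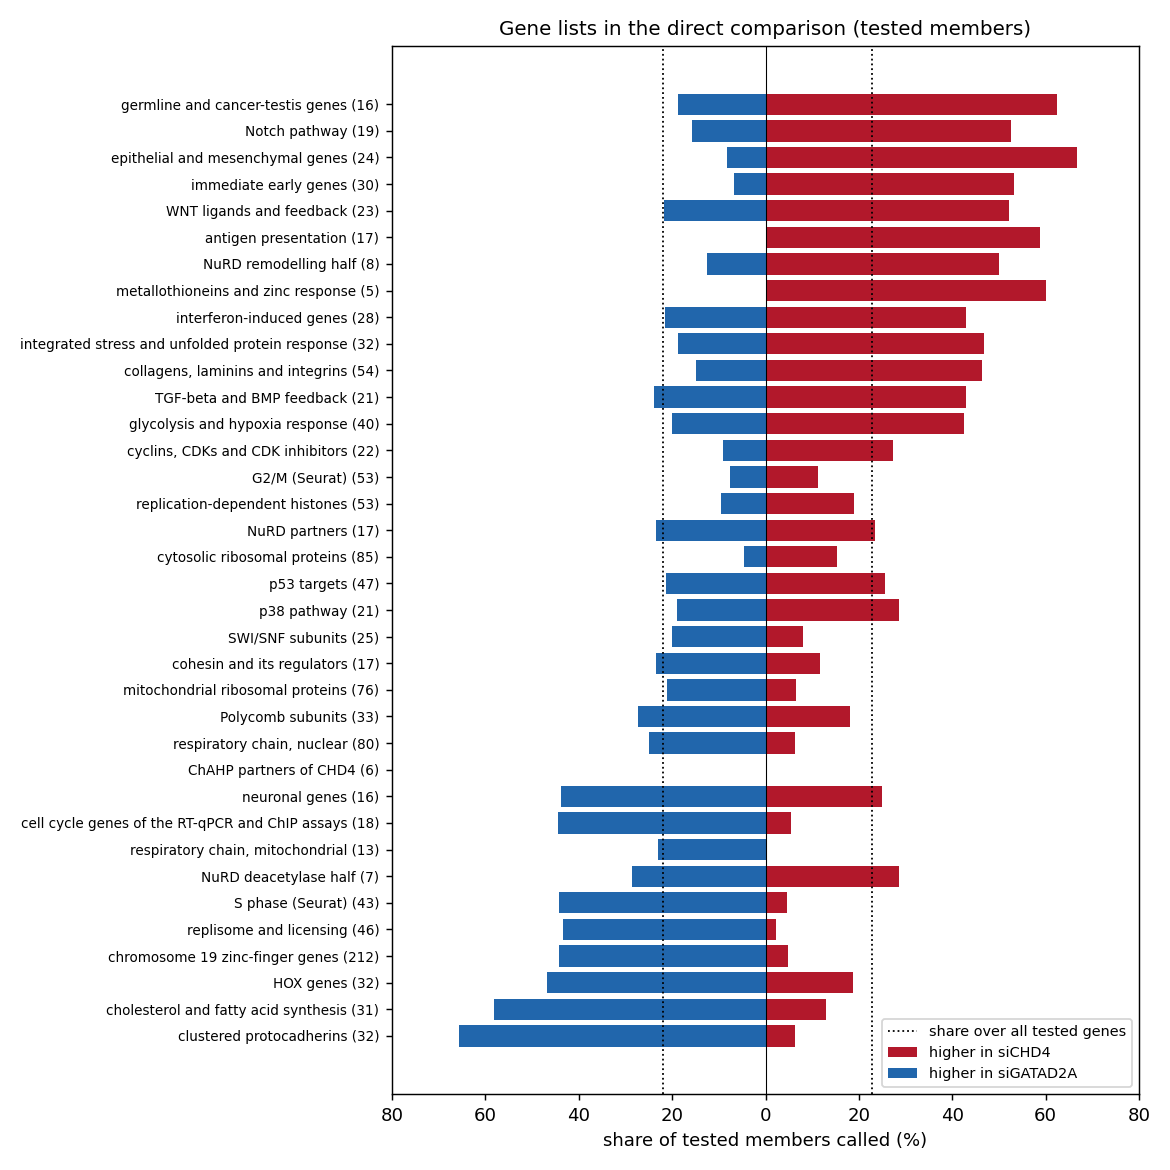
Share of the tested members of each list called higher in siCHD4 (right, red) and higher in siGATAD2A (left, blue), ordered by the median log2 fold change, with the number tested in brackets. Dotted lines mark the shares over all tested genes, 22.9% and 21.9%. Germline, Notch and epithelial and mesenchymal genes lie at the top and protocadherins at the bottom.

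Calls were also counted by chromosome and by expression level, with no test. On chromosome X, 140 of 452 genes (31.0%) were higher in siCHD4 and 73 (16.2%) in siGATAD2A, and on chromosome 19, 186 of 982 (18.9%) and 261 (26.6%). Of the 607 genes more than 2-fold higher in siCHD4, 431 were in the lowest of 4 equal classes of mean level per kilobase over all 12 libraries, as were 191 of the 308 genes more than 2-fold higher in siGATAD2A. The log2 fold changes correlated weakly over genes with GC content (r = 0.097) and log2 exonic length (r = -0.087). These correlations are across genes of the same 4 libraries, and genes are no independent replicates.

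Promoter letters were described for the 10395 tested genes with a RefSeq promoter. An AP-1 match lay in 5.25% of the 419 promoters of genes more than 2-fold higher in siCHD4, 3.36% of the 238 of genes more than 2-fold higher in siGATAD2A and 2.82% of all tested genes, against 4.92% of all 27305 promoters. For the ETS match the shares were 1.67%, 4.20%, 8.66% and 4.44% in the same order, and for the E2F match 3.82%, 1.68%, 3.77% and 2.31%. Among all called genes, the AP-1 share was 3.46% for those higher in siCHD4 and 2.49% for those higher in siGATAD2A. It was largest, 6.03% (7 of 116), in promoters of genes lower in siCHD4 and higher in siGATAD2A than siCTL. With the reverse calls it was 3.23% (5 of 155). A match is a description of these letters in a window of 300 bases and not a site.

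Genes of every biotype were tested as well, 20156 in all with at least the counts that edgeR's filter requires, of which 3885 (19.3%) were higher in siCHD4 and 3562 (17.7%) higher in siGATAD2A. Among the 3774 long non-coding RNAs, 365 were higher in siCHD4 and 562 in siGATAD2A, so that the direction with more calls was not that of all genes. Most of the largest differences among called non-coding genes were nevertheless higher in siCHD4, many with counts at or near 0 in siGATAD2A. LINC02582, named after its values were seen, had 73 and 77 counts in siCHD4, 0 and 1 in siGATAD2A, and 3 and 2 in siCTL.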

How the data were processed

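Each deposited file lists, for 1 library, the unnormalised count of fragments on every Ensembl gene, once ignoring strand and once per strand. The submitters' processing notes name STAR 2.7.10, CASAVA 1.4 and hg19, whereas the study's methods name TopHat, HOMER and DESeq2 for its own figures. The annotation behind the counts is not given in the sources used here. Fragments with several locations or on several genes are not counted, which lowers genes with near-identical copies.

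Reverse-strand counts were used, as the kit is directional. Of 60660 identifiers, 58662 (96.7%) matched GENCODE release 44 mapped to GRCh37, and 44 chromosome Y copies were left out. Unmatched identifiers held 1.75% to 2.10% of the counts of the 4 libraries. Protein-coding genes whose group mean exceeded 0.5 FPKM in any of the 6 groups entered edgeR 4.0.16 (R 4.3.3, TMM, quasi-likelihood test) in 1 model of 6 group means over all 12 libraries. Calls required a Benjamini-Hochberg adjusted p up to 0.05 together with a 1.2-fold difference. Replicates differed by more than sampling noise (chi-square per degree of freedom 1.77 in siCHD4 and 1.80 in siGATAD2A). On simulated data for this contrast with 12830 genes, 40, 41, 47 and 50 of 50 genes changed 1.3-, 1.5-, 2- and 4-fold were recovered, and 4 unchanged genes were called. Far fewer genes were changed there than were called here, and genes near 0 counts in siCTL were not among them. These figures therefore do not carry over to genes with low counts.

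Named were NuRD, ChAHP and RT-qPCR genes, the 10 largest folds in each direction (no overlap, mean count of at least 10 in the lower group), the 8 opposite genes per direction whose smaller change was largest (mean count of at least 10 in each of the 3 groups), and up to 4 called genes per list. The comparison, its members and all lists were chosen with earlier results of these data known, and lists are given by counts and medians only. Alternatives were other size factors, DESeq2 1.42.0, a replicate block, only the groups compared, unstranded counts, other filters and call rules, GC and length corrections, and each library left out. One member of the TGF-beta and BMP list is not reported here by name.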

Additional observations from a re-analysis of the deposited data

Results flagged for a closer look

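Members of the NuRD and RT-qPCR lists whose calls from siCTL had opposite signs in the 2 knockdowns are given here with the log2 fold change of siCHD4 over siGATAD2A, as a description, since the members were chosen for those calls. GATAD2A differed by 2.83 (standard error 0.058) and CDK2AP1 by 0.90 (standard error 0.058), both higher than siCTL in siCHD4 and lower in siGATAD2A. BCL11B differed by -1.93 (standard error 0.18), NEDD1 by -0.74 (standard error 0.075) and CDCA5 by -0.69 (standard error 0.048), all lower than siCTL in siCHD4 and higher in siGATAD2A. CDCA5 in siCHD4 lay close to the fold threshold, at 1.21-fold below siCTL.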

How the results depend on the processing

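Limits are the 2 libraries per group, 1 siRNA sequence per target, CHD4 counts that leave out sequence shared with another gene, and low counts in many of the largest differences. Without a fold threshold, opposite calls were 529 and 406 genes (229 and 143 with it). When edgeR tested against the fold, 96 and 44 remained opposite and 1835 genes were higher in siGATAD2A. Leaving out 1 library at a time gave 2693 to 2818 genes higher in siCHD4, 2640 to 2724 higher in siGATAD2A, 189 to 215 and 118 to 143 opposite, and log2 fold changes of -0.49 to -0.43 for CHD4, 2.81 to 2.86 for GATAD2A and -0.70 to -0.68 for CDCA5. Signs turned only in genes not called: with GC correction CARM1 (-0.019), CDC20 (-0.060), CDC25A (-0.099), CDK4 (-0.050) and ZFPM2 (-0.019), with length correction CDC20 (-0.083), CDC25A (-0.028) and CDK4 (-0.017), with unstranded counts ZFPM2 (-0.078), without the second siGATAD2A library CDC25A (-0.00080, 0.032 without the first) and PWWP2A (-0.023, 0.23 without the first), and without the second siCHD4 library SALL4 (0.011, -0.16 without the first) and ZNF827 (-0.026, 0.20 without the first). The causes were not tested. GC correction gave 2558 higher in siCHD4 and 3093 in siGATAD2A, length correction 2662 and 3079, and each moved 25 list medians by more than the spread between libraries. The signs of the medians turned for NuRD partners and the p38 pathway (GC), p53 targets and cytosolic ribosomal proteins (length) and replication-dependent histones (both). Calls were lost by MTA2, PWWP2B, SALL3 and SMARCD2 with the GC correction, by MT-ND4L, PWWP2B, SALL3 and SLC30A1 with the length correction, and by 13 named genes when tested against the fold, BICRA, E2F8, MCM8, MT-ATP6, MT-ND4L, MTA3, PWWP2B, RBBP4, SALL1, SALL2, SALL3, SLC30A1 and SMARCD2. Some named genes, not all of them marked above, also lost their call without either siCHD4 library or without the first siGATAD2A library. Differences between replicates 1 and 2 were nearly uncorrelated between the 2 knockdowns (r = 0.022, against -0.21 to 0.19 over the 15 pairs of groups). With 1 such difference per group, this cannot show whether same-numbered libraries share a batch or culture. A replicate block gave 2942 and 2803 genes, 228 and 143 opposite, and changed no call among the named genes.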
